A study of Mus musculus with 15 samples.

Results

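H3K4me3 at gene promoters was compared between the livers of mice on caloric restriction (CR) and mice on a purple corn diet (RD), with 3 mice and 3 libraries per diet, which are 6 of the 15 libraries of the series. The libraries were chosen by their diet labels, and every protein-coding gene was placed in a class by the number of CR and RD libraries with a peak within 1 kb of one of its transcription start sites (TSSs). Of 21755 protein-coding genes, 1439 had a peak in at least 2 CR libraries and no RD library, 35 had a peak in at least 2 RD libraries and no CR library, and 4109 had a peak in all 6 libraries and are called shared promoters.

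All mice were wild-type females of the strain given as C57BL/6 in the labels and as C57BL/6J in the methods of the study, with no transgene or other allele in either group. The feeding began at 3 months of age and lasted 10 months, although the age on the labels is 12 months. CR mice received a limited daily amount of the standard diet. RD mice fed ad libitum on the standard diet with its maize replaced by powder of anthocyanin-rich B1 Pl1 corn, so that the diets differed both in the energy supplied and in the corn. The remaining 9 libraries came from mice on the standard diet (SD), a high-fat diet (HF) and a yellow corn diet (YD), with 3 mice each. The mice belonged to a small number of litters, and the litter of each mouse was not given in the sources used here.

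H3K4me3 is a histone modification laid down around the start sites of active genes, mostly by SET1 and MLL complexes, and CpG-rich promoters usually carry it whatever the tissue. Promoters low in CpG carry it mainly where the gene is in use. Caloric restriction is known to act on the liver through fasting metabolism, insulin and AMPK signalling and the circadian clock, whereas cyanidin 3-O-glucoside, the main anthocyanin of purple corn, has been tied to AMPK, antioxidant and inflammatory pathways. A peak here was a SICER island, a run of enriched windows of 200 bp. The presence of a peak depended on the detection threshold within each library, so that a gene with no peak may still carry the mark below that threshold. The livers were bulk tissue, in which fewer cells of a type and less signal per cell cannot be told apart.

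The CR lists held 14446, 14727 and 33752 peaks and the RD lists 14454, 32131 and 12658. The difference of the means, 1227 peaks, was smaller than the spread within either diet (exact permutation test, two-sided p = 0.6, n = 3 per diet). The CR 3 and RD 2 lists stood apart, with 22329 and 24087 peaks away from TSSs against 4811 to 7922 in the other 4 libraries. The reads behind the lists, recovered from the steps of the scores, ranged from 5589269 to 9919067 in CR and from 9237277 to 13978169 in RD, so that as a group the CR lists did not rest on more reads. The names of CR 1, CR 2 and RD 1 carry the word PATChIP and those of CR 3, RD 2 and RD 3 the word ChIP. Comparisons of values per library were repeated within each form of name. The gene classes and the tests at single promoters were not.

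The labelled tissue was checked with 11 hepatocyte markers, of which 9, 10 and 10 had a peak in the CR libraries and 11, 9 and 8 in the RD libraries. Albumin (Alb) was without a peak most often, with a peak at its TSS in RD 1 alone. In the other 5 libraries the nearest peak to an Alb TSS lay 51301 to 93097 bp away. Apoa1 had no peak in CR 1 and RD 3, Serpina1a none in RD 2 and Cps1 none in RD 3. None of 13 Kupffer cell and macrophage markers had a peak in any of the 6 libraries. Of 13 hepatic stellate cell markers, Dcn had a peak in 1 CR library and Hand2 in 1 RD library, and of 13 lymphocyte markers only Ptprc had a peak, in 1 CR and 2 RD libraries. Of 13 sinusoidal endothelial markers, 2, 3 and 6 had a peak in the CR libraries and 1, 1 and 2 in the RD libraries, with Stab1 in 3 CR and no RD library and Kdr and Gpr182 in 2 CR and no RD library. Pecam1 went the other way, with a peak in 1 RD and no CR library, and Clec4g, Erg and Tek had a peak in 1 library of each diet. Lyve1 and 4 other endothelial markers had a peak in none of the 6 libraries. Of 8 cholangiocyte markers, 1, 3 and 2 had a peak in CR and 1 had a peak in each RD library, with Sox9 in 2 CR and no RD library. The part of endothelial and biliary cells in the differences that follow was not tested.

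More genes carried a promoter peak in CR than in RD. A peak was found at 35.5%, 46.5% and 48.2% of protein-coding genes in CR 1, CR 2 and CR 3 and at 31.2%, 34.7% and 27.8% in RD 1, RD 2 and RD 3. Every CR library therefore lay above every RD library. The mean was 43.4% ± 6.92 in CR and 31.2% ± 3.46 in RD (SD, n = 3), a difference of 12.2 percentage points (exact permutation test, two-sided p = 0.1, the smallest p that 3 against 3 can give). The difference was 9.81 points among the libraries named PATChIP (2 CR against 1 RD) and 17.0 points among those named ChIP (1 CR against 2 RD), and it was 11.5 points without CR 3 and RD 2. Of all peaks, 51.2%, 67.3% and 33.8% lay at a TSS in the CR lists, and 45.2% and 45.6% did so in RD 1 and RD 3, with the lowest share in RD 2. These shares overlapped between the diets (exact permutation test, two-sided p = 0.4, n = 3 per diet), and within the ChIP form of name the difference had the opposite sign, at -1.48 points.

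**Figure D1:**
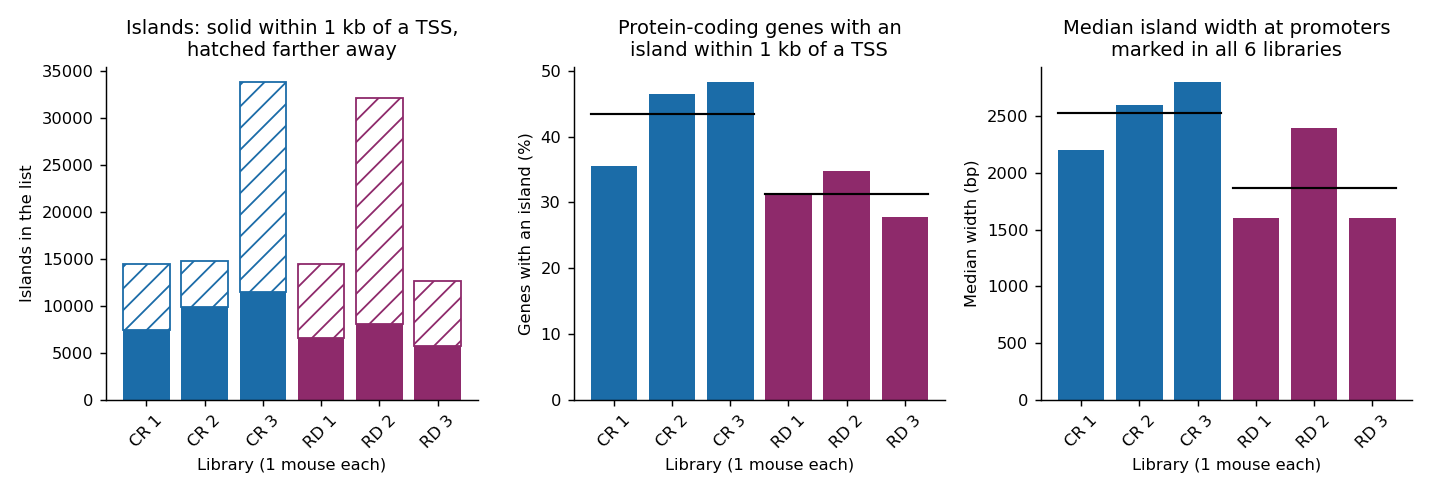
Bars show, for each of the 3 CR and 3 RD libraries (1 mouse each), the number of peaks within 1 kb of a TSS (solid) and farther away (hatched), the percentage of protein-coding genes with a peak, and the median peak width in bp at the 4109 shared promoters, with black lines at the diet means. CR 3 and RD 2 have by far the most peaks away from TSSs, and all 3 CR libraries (35.5% to 48.2%) lie above all 3 RD libraries (27.8% to 34.7%) in genes with a peak.

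The genes that separated the diets were almost all on the CR side. The 1439 genes with a peak in at least 2 CR libraries and no RD library were 6.61% of the protein-coding genes, against 0.161% for the 35 genes of the opposite class. Under the stricter rule of a peak in every library of a single diet and in none from its counterpart, 437 genes (2.01%) were in the CR class and 1 gene, Hk1, in the RD class (0.00460%). A larger number of genes differed only in part, with 1690 genes marked in 3 CR and 2 RD libraries and 955 in 3 CR and 1 RD library. Over all protein-coding genes, 5907 (27.2%) had a peak in more CR than RD libraries and 756 (3.48%) in more RD than CR libraries. How far these counts moved depended on the list left out, while the direction was set by the rule. For the wider classes, leaving out a library of the diet with the peaks turns at least 2 libraries into every library left. The count can then only stay or fall. Leaving out a library of the other diet can only raise the count or leave it unchanged. Of the 1439 genes, 588 had a peak in CR 1, 1364 in CR 2 and 1363 in CR 3, and the count was 512 without CR 2, 513 without CR 3 and 2264 without RD 2. Of the 35 genes, 34 had a peak in RD 2, the list with the largest covered length, and the count was 2 without that library. The stricter classes moved as well, but could only stay or grow. A rule of every library of a single diet and none of the other loosens whenever a library is left out. The 437 genes became 1288, 512 and 513 without CR 1, CR 2 and CR 3 in turn and 762, 876 and 628 without RD 1, RD 2 and RD 3. The single RD gene became 7, 1 and 7 without CR 1, CR 2 and CR 3 and 13, 2 and 22 without RD 1, RD 2 and RD 3. Without CR 3 and RD 2 together the strict counts were 969 in CR and 13 in RD.

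**Figure D2:**
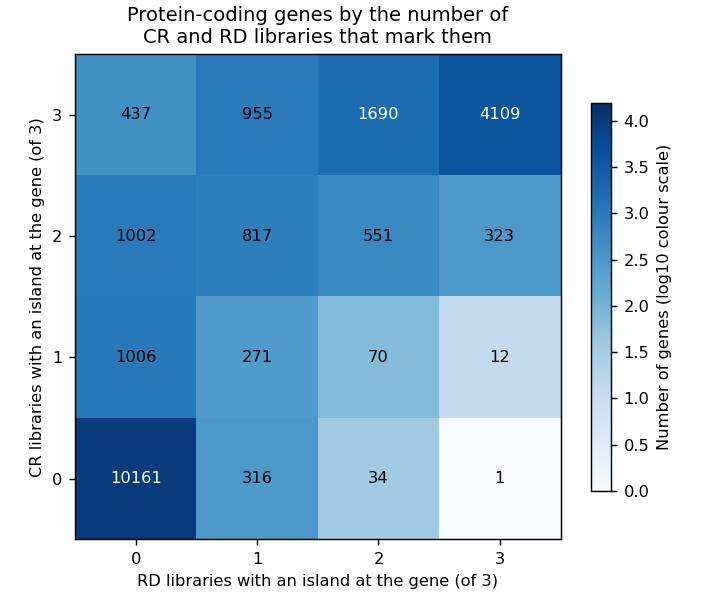
Each cell gives the number of protein-coding genes with a peak in 0 to 3 CR libraries (vertical axis) and 0 to 3 RD libraries (horizontal axis), coloured on a log10 scale. The CR side of the diagonal is the fuller one, with 437 genes in the cell of 3 CR and 0 RD libraries against 1 gene in the cell of 0 CR and 3 RD libraries.

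The start-site sequences of 5 genes are shown first, since they span the CpG content of the promoters that separated the diets. They are read 5′ to 3′ from mm10 on the strand of the gene, and capitals mark CpG dinucleotides. Each covers up to 250 bases before an annotated TSS within 1 kb of the peaks, without bases inside an exon of an annotated coding transcript. That TSS lay inside the CR 2 peak of Apoc2 and the CR 1 peak of Mllt6, but outside the other CR peaks of these genes. At Noct it lay outside the CR 1 peak and the higher-scoring CR 3 peak. Noct (chr3:51224220-51224446, + strand), Apoc2 (chr7:19677942-19678082, - strand) and Mllt6 (chr11:97663164-97663413, + strand) are the genes of the strict CR class with the highest mean score ranks, Gm and Rik names left out. Hk1 (chr10:62340543-62340792, - strand) is the strict RD gene, at an internal start of the gene that overlaps the antisense transcript Hk1os. Olfr1110 (chr2:87140301-87140550, - strand) is the olfactory receptor gene with the highest mean score rank among those with a peak in 2 RD libraries and no CR library.
Noct: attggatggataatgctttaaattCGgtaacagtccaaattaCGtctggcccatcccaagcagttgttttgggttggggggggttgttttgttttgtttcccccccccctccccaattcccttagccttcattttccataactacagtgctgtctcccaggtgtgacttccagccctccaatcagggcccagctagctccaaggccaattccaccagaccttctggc
Apoc2: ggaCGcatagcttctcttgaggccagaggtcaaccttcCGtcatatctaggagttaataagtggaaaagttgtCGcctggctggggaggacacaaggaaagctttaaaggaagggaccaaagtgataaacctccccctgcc
Mllt6: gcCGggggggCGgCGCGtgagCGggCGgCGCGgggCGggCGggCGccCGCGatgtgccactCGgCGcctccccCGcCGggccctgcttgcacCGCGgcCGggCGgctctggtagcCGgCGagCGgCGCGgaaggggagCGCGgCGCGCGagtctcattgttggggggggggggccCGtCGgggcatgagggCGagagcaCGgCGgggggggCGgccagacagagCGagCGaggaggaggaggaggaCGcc
Hk1: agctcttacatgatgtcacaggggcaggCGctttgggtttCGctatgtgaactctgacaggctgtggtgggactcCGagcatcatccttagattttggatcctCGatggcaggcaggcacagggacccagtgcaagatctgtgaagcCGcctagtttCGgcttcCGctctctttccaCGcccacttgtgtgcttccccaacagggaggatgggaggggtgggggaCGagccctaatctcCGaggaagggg
Olfr1110: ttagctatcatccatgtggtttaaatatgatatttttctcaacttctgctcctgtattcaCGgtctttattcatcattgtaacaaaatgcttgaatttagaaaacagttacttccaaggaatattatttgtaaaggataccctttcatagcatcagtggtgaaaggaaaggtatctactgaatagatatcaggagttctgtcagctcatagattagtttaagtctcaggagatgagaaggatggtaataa
The stretch of Mllt6 holds 40 CpGs, that of Hk1 holds 10, those of Apoc2 and Noct hold 3 and 2, and that of Olfr1110 holds 1.

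Over whole classes, the CpG content at the 5′ ends of the CR genes was close to that of the shared genes. That of the RD genes was not. In a window from 250 bases before to 50 bases after the 5′ end of each gene, the median number of CpGs was 20 in the 437 strict CR genes, 21 in the 4109 shared genes and 2 in the 35 RD genes, against 11 over all protein-coding genes and 5 in the 10161 genes with no peak in any of the 6 libraries. The observed to expected CpG ratio was above 0.6 in 69.8% of the strict CR genes, 76.1% of the shared genes and 8.57% of the RD genes, against 44.7% of all protein-coding genes. These values are a description, since the classes were made from the peaks and peaks form more often at CpG-rich starts. The 5′ end of a gene is also not always the start that its peaks mark. At Hk1 the window holds 1 CpG, against 10 in the 250 bases before its marked internal start.

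The peaks of the strict CR genes were narrower and ranked lower than those of shared promoters. Their median width was 1600 bp in CR, against 2600 bp at shared promoters in the same libraries, and their median score rank within the list was the 56.7th percentile against the 87.5th. An annotated TSS lay inside a peak in all 3 CR libraries for 234 of the 437 genes. In RD, 21 of the 437 genes had a peak within 3 kb of a TSS and 82 within 10000 bp, so that most had no RD peak near the start site. The peaks of the 3 CR libraries overlapped each other at 421 of the 437 genes (96.3%) and lay apart, at least in part, at the other 16. A peak was shared with another protein-coding gene at 74 of the 437 genes (16.9%), and for those the marked gene cannot be told apart from its neighbour.

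The strict CR genes were not particular to CR mice. In the 9 libraries of the other diets, the mean share of the 437 genes with a peak was 94.1% ± 5.05 in HF, 60.1% ± 22.3 in SD and 11.6% ± 5.57 in YD (SD, n = 3 mice). Over all protein-coding genes the shares were 51.2% ± 3.53 in HF, 39.6% ± 5.98 in SD and 22.8% ± 4.69 in YD. In SD mice, 293 of the 437 genes had a peak in at least 2 of 3 libraries and 38 had none. Only 1 of the 437 genes, Gsta4, was without a peak in all 9 libraries. HF mice thus carried nearly all of these peaks, SD mice part of them, and YD mice few. The 35 RD genes had a peak in 29.5% ± 1.65 of cases in HF, 25.7% ± 7.56 in SD and 8.57% in each YD library, and 12 of them had no peak in any of the 9 libraries.

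**Figure D3:**
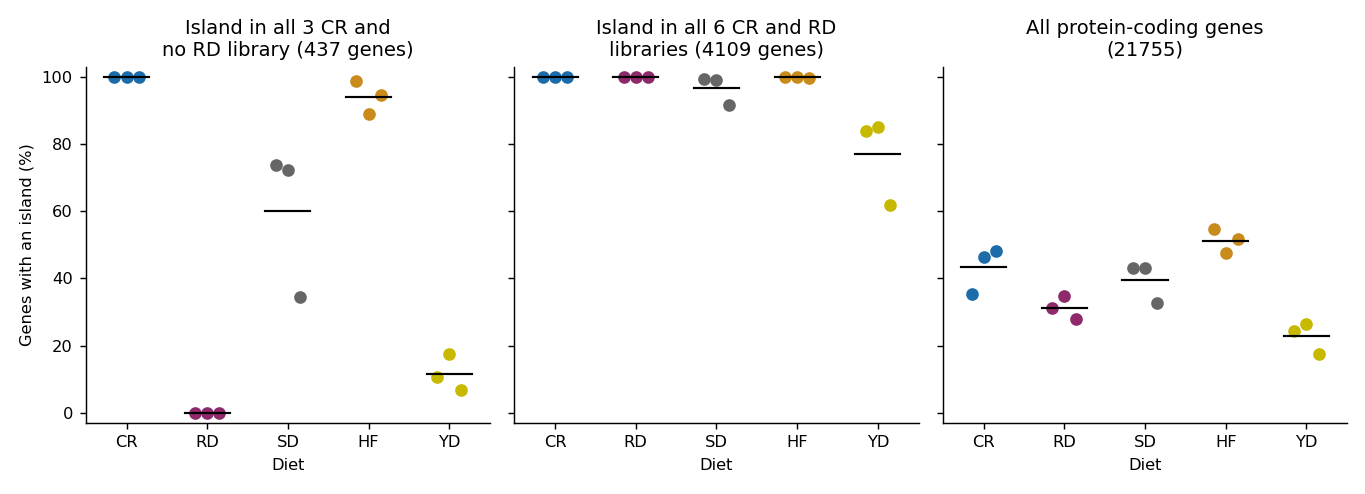
Points show the percentage of genes with a peak in each of the 15 libraries, by diet, and black lines show diet means, for the 437 genes with a peak in all 3 CR and no RD library, for the 4109 shared promoters and for all 21755 protein-coding genes. The 437 genes are set at 100% in CR and 0% in RD by the way they were chosen, and lie at a mean of 94.1% in HF, 60.1% in SD and 11.6% in YD.

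The 12 strict CR genes with the highest mean score ranks, Gm and Rik names left out, had varied roles. Noct, the clock-controlled nocturnin, had peaks of 2000, 4000 and 2000 bp in the 3 CR libraries, at the 87.6th, 96.3rd and 96.6th percentile of score. Among the other diets it had a peak in 2 HF libraries and 1 SD library. Apoc2, the cofactor of lipoprotein lipase, had peaks of 2800, 4000 and 3400 bp at the 79.2nd, 89.5th and 97.6th percentile, which it shared with the neighbouring Apoc4. Apoc2 also had a peak in all 3 HF, all 3 SD and 2 YD libraries, and RD was the only diet without one. Mllt6, a chromatin reader that partners the H3K79 methyltransferase, had peaks of 6600, 4000 and 600 bp, and those of CR 2 and CR 3 did not overlap. Stip1, a cochaperone that links HSP70 and HSP90, had peaks of 2200, 2600 and 1400 bp, and Dynll1, a light chain of dynein, had peaks of 2800, 2600 and 2400 bp. Adamts6, a secreted metalloprotease, had peaks of 3400, 3600 and 3000 bp. The remaining genes were Fbxo31 (a ubiquitin ligase adaptor), Tor1b (a torsin ATPase), Zfp598 (a ubiquitin ligase of stalled ribosomes), Aplp2 (a relative of the amyloid precursor protein), Afg3l2 (a mitochondrial inner membrane protease) and Sun1 (an inner nuclear membrane protein), with widths of 1200 to 3400 bp. All 12 genes also had a peak in at least 2 HF libraries and at least 1 SD library.

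The 437 strict CR genes held 12 of the 682 genes of the gene and marker lists (1.76%), a share close to the 2.01% of all protein-coding genes, so that the lists as a whole did not stand out in this class. Ciart and Bhlhe41, both repressors of the CLOCK and BMAL1 pair, had peaks of 2400, 2600 and 2200 bp and of 1400, 1600 and 1800 bp in the 3 CR libraries. Bhlhe41 had a peak in no SD and 3 HF libraries and Ciart in 1 SD and 1 HF library. Sirt7, a nuclear deacylase, had peaks of 1600 and 1400 bp near its 5′ start in CR 2 and CR 3, while its CR 1 peak of 1200 bp lay at the start of the neighbouring Pcyt2 and overlapped neither. Gsk3a, a kinase that restrains glycogen synthase, had peaks of 2000, 1000 and 2400 bp. Pfkfb1, the liver enzyme that sets fructose 2,6-bisphosphate, likewise had peaks of 1400 and 1600 bp at one start in CR 2 and CR 3, while its CR 1 peak of 2200 bp lay at another start shared with Apex2. Gsta4, a glutathione transferase that clears lipid aldehydes, had peaks of 600, 1800 and 1800 bp at the 7.11th, 55.1st and 88.4th percentile, so that the CR 1 peak was near the bottom of its list. Atf3, a stress-induced transcription factor, had a peak of 600 bp at the 2.22nd percentile in CR 2 and peaks of 1400 and 2000 bp in CR 1 and CR 3. Rplp0 (ribosomal stalk), Atp5d (ATP synthase, shared with Cbarp), Ifi35 (interferon-induced), Ccne2 (cyclin E2) and Stab1 (scavenger receptor of sinusoidal endothelium) completed the group, with widths of 600 to 3000 bp.

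Over whole lists, the circadian clock genes showed the widest gap between the diets. Of 22 clock genes, 19, 21 and 19 had a peak in the CR libraries and 14, 11 and 12 in the RD libraries, a gap of 33.3 percentage points against 12.2 points over all protein-coding genes. The gap did not rest on the CR 3 and RD 2 lists, since the counts in the other libraries were 19 and 21 in CR and 14 and 12 in RD. A peak was present in more CR than RD libraries at 13 of the 22 genes (59.1%, against 27.2% of all protein-coding genes) and in more RD than CR libraries at none (against 3.48%). All 22 clock genes had a peak in at least 1 of the 6 libraries, whereas 46.7% of all protein-coding genes had none. The overall gap and shares are therefore diluted by unmarked genes, and a comparison with marked genes alone was not made. Per2, Hlf, Tef and the kinase gene Csnk1d had a peak in 3 CR libraries and 1 RD library. Cry1, Cry2, Per1 and Per3 had a peak in 3 CR and 2 RD libraries, and Nr1d2 in 2 CR and 1 RD library. Clock and Nfil3 had a peak in 2 libraries of each diet.

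Nutrient sensing genes came next. Of 40 genes of the AMPK, sirtuin and mTOR pathways, 36, 38 and 38 had a peak in CR and 29, 30 and 22 in RD, a gap of 25.8 points against 12.2 over all protein-coding genes. At 20 of the 40 genes the peak was present in more CR than RD libraries (against 27.2% of all protein-coding genes). At none was it present in more RD libraries (against 3.48%). All 40 genes had a peak in at least 1 of the 6 libraries, whereas 46.7% of all protein-coding genes had none. The same dilution of the overall values therefore applies, and whether this list stood out among marked genes was not tested. Mtor itself, its partner Rictor, the TSC subunit Tsc1, the AMPK subunit Prkab1, Nampt (the enzyme that regenerates NAD), Sirt4 and Sirt6 each had a peak in 3 CR libraries and 1 RD library. Sirt1 and Rptor had a peak in 3 CR and 2 RD libraries.

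Genes of the insulin, growth hormone and IGF axis had a gap of 22.9 points against 12.2 over all protein-coding genes, but the diets overlapped. Of 32 genes, 20, 27 and 28 had a peak in CR and 20, 15 and 18 in RD, so that CR 1 and RD 1 were equal. Only 2 of the 32 genes had no peak in any of the 6 libraries, against 46.7% of all protein-coding genes. Igf1r, Grb14 (an adaptor that restrains the insulin receptor), Trib3 (an inhibitor of AKT) and Pik3cb had a peak in 2 CR and no RD library, and Akt1 and Akt2 in 3 CR libraries and 1 RD library. Igfbp1, a secreted IGF binding protein, went the other way, with a peak in 1 CR and 2 RD libraries.

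The metabolic lists were mixed, and their counts are to be read beside the shares of all protein-coding genes, 35.5%, 46.5% and 48.2% in CR and 31.2%, 34.7% and 27.8% in RD. Those shares include the 46.7% of genes with no peak in any of the 6 libraries, while at most 13.9% of each metabolic list had none. Of 35 genes of glucose and pyruvate metabolism, 20, 30 and 31 had a peak in CR and 19, 25 and 18 in RD. Pck1 (the gluconeogenic PEP carboxykinase), Pklr and Pkm (pyruvate kinases) and Pdk1 (an inhibitor of pyruvate dehydrogenase) had a peak in 2 CR and no RD library, and Pgk1 and Pcx in 3 CR libraries and 1 RD library. Fbp1 and Pygl had a peak in 2 CR and 3 RD libraries, since each was missing from 1 CR list. Of 41 genes of serine, glycine and amino acid breakdown, 30, 36 and 37 had a peak in CR and 28, 32 and 23 in RD. Of 36 Nrf2 antioxidant genes, 24, 31 and 30 had a peak in CR and 21, 25 and 18 in RD, with Ephx1 and Gstp1 in 2 CR and no RD library. Fatty acid oxidation and ketogenesis differed little, with 21, 29 and 28 of 30 genes in CR and 26, 25 and 22 in RD. Lipid and cholesterol synthesis had 22, 31 and 32 of 32 genes in CR and 27, 26 and 22 in RD, and hepatocyte function genes 22, 28 and 28 of 29 in CR and 26, 26 and 21 in RD. CR 1 thus lay below every RD library for fatty acid oxidation, level with RD 3 for lipid synthesis and above RD 3 alone for hepatocyte function. It had the fewest reads of the 6 libraries, and the part of depth was not tested.

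Signalling and housekeeping lists gave the following counts. Of 40 genes of integrin and ILK adhesion, 25, 29 and 29 had a peak in CR and 23, 21 and 18 in RD, with Itga3, Flna, Tns1, Lims1 and Fermt1 in 2 CR and no RD library. The gap of the list was 17.5 points against 12.2 over all protein-coding genes. Those 5 genes were 12.5% of the list, against 6.61% of all protein-coding genes. However, 8 of the 40 genes had no peak in any of the 6 libraries, against 46.7% of all protein-coding genes. The overall values are therefore diluted by unmarked genes and do not show that the list stood out. Some peaks of the 5 genes were among the weakest of their lists. Their percentiles of score were 0.509 and 0.421 for Fermt1, and in CR 3 they were 0.927 for Itga3 and 2.84 for Flna. Cell cycle and p53 genes had 23, 31 and 32 of 42 in CR and 20, 22 and 21 in RD. Interferon and antigen presentation genes had 29, 22 and 23 of 35 in CR and 18, 20 and 21 in RD. Endoplasmic reticulum and integrated stress genes had 27, 30 and 30 of 32 in CR and 26, 26 and 25 in RD. Autophagy and lysosome genes had 34, 37 and 39 of 40 in CR and 33, 36 and 32 in RD. Nuclear oxidative phosphorylation subunits had 47, 49 and 49 of 50 in CR and 42, 44 and 41 in RD, and cytosolic ribosomal proteins 48, 50 and 50 of 50 in CR and 45, 48 and 45 in RD. Developmental transcription factors, which are silent in adult liver, had 3, 2 and 1 of 43 in CR and 1 in each RD library. Lists marked nearly in full in CR had little room for a gap, and no list was tested.

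**Figure D4:**
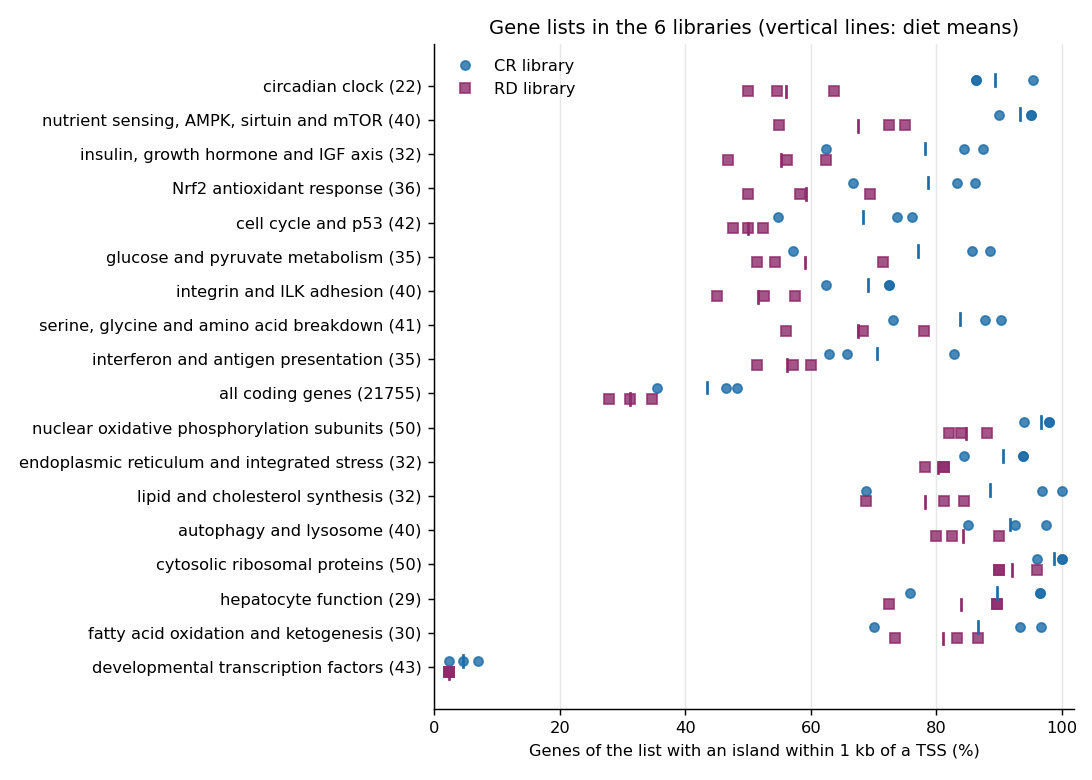
Points show the percentage of the genes of each list (number of genes in parentheses) with a peak within 1 kb of a TSS in each CR library (circles) and RD library (squares), with vertical lines at the diet means, ordered by the difference of the means. The circadian clock list lies at the top with 86.4% to 95.5% in CR and no more than 63.6% in RD, and the developmental transcription factors at the bottom with under 10% in every library.

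The RD side was small. Hk1, which encodes the low Km hexokinase and is little used by hepatocytes, had peaks of 2000, 1800 and 1600 bp in RD 1, RD 2 and RD 3 at the 62.2nd, 21.5th and 68.8th percentile and no peak in CR. The TSS marked was an internal one at base 62340542 of chromosome 10. Hk1 also had a peak in 3 HF and 2 SD libraries and in no YD library. Olfactory and vomeronasal receptor genes made up 15 of the 35 genes of the wider RD class (42.9%), against 6.73% of all protein-coding genes and 0 of the 437 strict CR genes. This family was picked out after its values were seen. Olfr1110 had peaks of 4000 bp in RD 2 and 1200 bp in RD 3. These receptors are expressed in sensory neurons. All 15 genes had a peak in RD 2, as did 34 of the 35 genes of the class, so that this does not set the receptors apart. RD 2 was the list with 24087 peaks away from TSSs, and its part in the receptor peaks was not tested. Liver genes in the class were Lipc (hepatic lipase, 1800 and 2800 bp in RD 1 and RD 2), Dio1 (the deiodinase of the liver, 2600 and 1600 bp in RD 1 and RD 3) and Cyp4f37 (1200 and 4200 bp in RD 1 and RD 2). Nr4a1, an immediate early nuclear receptor with 50 CpGs in its window, had short peaks of 600 and 1000 bp in RD 2 and RD 3. Gm17334 lies inside Irf1, and its peaks of 3600 and 3800 bp had the widths of the Irf1 peaks of the same libraries.

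At the 4109 shared promoters, CR peaks were wider than RD peaks before any correction for the library. The median width was 2200, 2600 and 2800 bp in CR and 1600, 2400 and 1600 bp in RD, with RD 2 inside the CR range. The means were 2533 ± 306 bp and 1867 ± 462 bp (SD, n = 3), a difference of 667 bp (exact permutation test, two-sided p = 0.2, n = 3 per diet). As measured, the widths of the diets did not overlap at 629 shared promoters wider in CR (15.3%) and 10 wider in RD (0.243%). After each library was centred on its own median on the log2 scale, the split became 192 wider in CR (4.67%) and 247 wider in RD (6.01%). The direction of a width difference at a single promoter is therefore relative to its library.

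No shared promoter passed the test of width. With limma on centred log2 widths, 0 of 4109 were wider in CR (0.00%) and 0 in RD (0.00%) at an adjusted p under 0.05, and the smallest adjusted p was 0.858. In simulated data this test recovered 0 of 200 promoters changed by 1 on the log2 scale. The lack of calls therefore does not show that widths were alike. At an unadjusted p under 0.05 there were 99 promoters wider in CR and 105 wider in RD. The genes named below are those with the smallest p among the promoters whose centred widths did not overlap, and their values are a description. A gene with several starts was compared by its widest peak, and the widest peaks of all 6 libraries overlapped each other at 3732 of the 4109 genes (90.8%) and lay apart, at least in part, at the other 377.

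The group wider in CR held 2 consecutive enzymes of the urea cycle, Ass1 and Asl. At Asl (argininosuccinate lyase) the peaks were 3200, 3600 and 3400 bp in CR and 1000, 1200 and 800 bp in RD, a centred difference of 1.32 ± 0.31 on the log2 scale (SE). The RD 1 value came from another place than the rest, a start about 5 kb upstream that is shared with Crcp, and RD 1 had no peak at the start compared in the other 5 libraries. At Ass1 (argininosuccinate synthase) they were 2800, 4400 and 5600 bp in CR and 800, 2800 and 600 bp in RD, where RD 2 equalled CR 1 before centring. Irs1, the docking protein of the insulin receptor, had peaks of 2400, 7600 and 8400 bp in CR and 1200, 1400 and 1400 bp in RD, a centred difference of 1.55 ± 0.39. The Irs1 difference was thus carried mainly by CR 2 and CR 3. At Slc37a4, the glucose 6-phosphate transporter of the endoplasmic reticulum, the widths were 3800, 4400 and 4800 bp in CR and 1000, 2600 and 600 bp in RD. P4hb, a protein disulfide isomerase, had peaks of 2800, 4800 and 5000 bp in CR and 1400, 1000 and 800 bp in RD. Ces1d, a liver carboxylesterase, had peaks of 4800, 4600 and 4800 bp in CR and 1400, 1400 and 1800 bp in RD. Chmp2a (a subunit of the ESCRT-III complex) and Josd1 (a deubiquitinase) completed the group, at 3400 to 5800 bp in CR and 600 to 2200 bp in RD. The Chmp2a region was split into 2 peaks in CR 2, and the wider of them did not overlap the RD peaks.

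Differences toward RD were smaller in bp, with one exception. Zfp2, a zinc finger protein gene, had peaks of 1400, 4200 and 4400 bp in CR and 13000, 21800 and 4200 bp in RD, a centred difference of -2.30 ± 0.49 on the log2 scale. The CR 1 value belonged to a peak at the 5′ start, over chr11:50915601-50917000, and CR 1 had no peak at the internal start where the other 5 values were taken. The RD 3 peak was no wider than those of CR 2 and CR 3 before centring. The broad RD peaks ran from an internal TSS of Zfp2 toward and past the 3′ end of the gene, over chr11:50897601-50910600 in RD 1 and chr11:50889601-50911400 in RD 2. Broad peaks in the same place were present in the HF libraries (11000 to 16400 bp) and in YD 1 (18200 bp), so that they were not particular to RD. Irf1, a transcription factor of the interferon response, had peaks of 2200, 2600 and 1800 bp in CR and 2200, 3600 and 3800 bp in RD, and Irgm2, an interferon-induced GTPase, had peaks of 1600, 2800 and 1600 bp in CR and 2800, 3200 and 2600 bp in RD. Scaf4, Zfp426, Prrc2a, Ywhab and Prrc1 were the other genes of this group, at 400 to 3200 bp in CR and 1200 to 7000 bp in RD. At Irgm2 and Zfp426 the widest peak lay at different starts in different libraries.

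**Figure D5:**
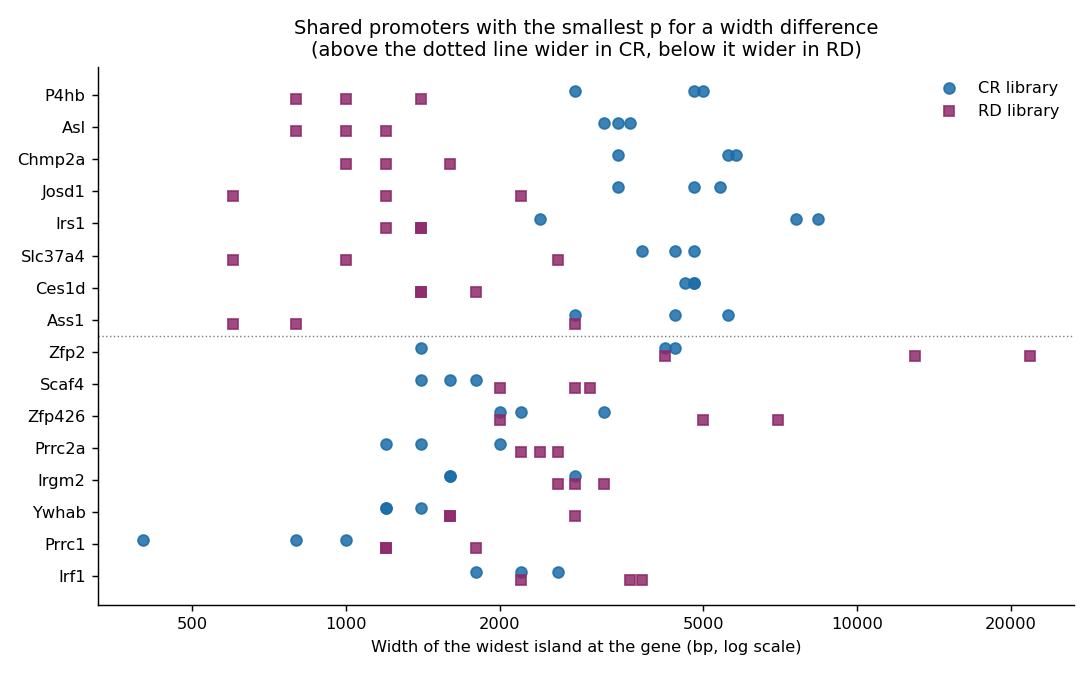
Points show the width in bp (log axis) of the widest peak at each of 16 shared promoters in the 3 CR libraries (circles) and 3 RD libraries (squares), with 8 genes wider in CR above the dotted line and 8 wider in RD below it after centring. The Zfp2 peaks of RD 1 and RD 2 reach 13000 and 21800 bp, while at Asl all 3 CR peaks (3200 to 3600 bp) lie above all 3 RD peaks (800 to 1200 bp). The CR 1 point of Zfp2 and the RD 1 point of Asl are peaks at another start of the gene than the other 5 points.

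The scores of peaks were compared by rank, since they are not scaled between libraries. Each shared promoter was given its percentile of score among the 4109 in each library, and the ranks were tested with limma as normal scores. The highest-scoring peaks of all 6 libraries overlapped each other at 3814 of the 4109 genes (92.8%). No promoter ranked higher in CR passed the test (0.00%) and 1 promoter ranked higher in RD passed it (0.0243%), with 122 and 117 at an unadjusted p under 0.05. The gene was Zfp2, at the 23.7th, 11.9th and 10.9th percentile in CR and the 99.1st, 98.8th and 92.3rd in RD (limma, adjusted p = 0.0368). This call compared peaks at different places. The highest score in each CR library was that of a peak at the 5′ start, over chr11:50915401-50916600 in CR 3, whereas the RD values came from the broad peaks at the internal start, and a peak at the 5′ start was also present in RD 2 (1800 bp). The call is therefore no measure of a change at one site. The call was lost without any one of the RD libraries, without the CR 3 and RD 2 lists and over all annotated genes. It was also lost with TSSs inside a peak, with TSSs within 3 kb and with percentiles within the whole list. Limma without a trend and limma with same-numbered mice as a block lost it as well. Ranks did not overlap between the diets at 208 promoters higher in CR (5.06%) and 264 higher in RD (6.42%).

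Promoters ranked higher in CR with the smallest p included Klf15, a fasting-induced regulator of gluconeogenesis and amino acid breakdown. Its percentiles were 88.8, 98.4 and 98.6 in CR and 55.1, 32.6 and 42.7 in RD (limma, adjusted p = 0.258). Mettl23, a methyltransferase gene, was at 98.5, 93.6 and 95.7 in CR and 45.2, 48.5 and 47.5 in RD. The CR 1 and CR 3 values of Mettl23 were those of peaks over the starts of the neighbouring Srsf2 and Mfsd11, which overlapped none of the RD peaks compared. Slc37a4 was at 82.7, 92.3 and 96.9 in CR and 8.81, 43.1 and 0.681 in RD, so that it stood out in both width and rank, as did P4hb. Slc25a22 (the mitochondrial glutamate carrier), Phf12 (a corepressor subunit), Vegfa (the vascular growth factor) and Rusc2 were the others. The genes named here and in the next paragraph were taken only from promoters whose ranks did not overlap. That every CR library ranked above every RD library, or the reverse, was thus fixed by the choice. At Slc25a22 and Vegfa the wide CR peaks overlapped RD peaks that did not all overlap each other.

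Promoters ranked higher in RD included Crot, the peroxisomal carnitine octanoyltransferase, at percentiles of 37.5, 60.5 and 64.1 in CR and 96.7, 94.9 and 91.9 in RD. Atf5, Il4i1 and Nup62 share the same peaks, at 28.4, 14.0 and 4.79 in CR and 79.5, 88.1 and 60.7 in RD, and count as 1 region. Coq8a, a kinase-like protein of coenzyme Q synthesis, was at 1.28, 14.7 and 24.7 in CR and 93.6, 92.6 and 34.3 in RD, with RD 3 close to the CR libraries and its peak apart from those of CR 1 and CR 3. Taf7 and Slc25a2 are neighbours that share a peak in RD 2 and RD 3, both at 98.3 and 97.4 there. None of these differences passed the test (limma, adjusted p of 0.481 to 0.587).

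Among the gene lists at shared promoters, amino acid enzymes had the most genes ranked higher in CR without overlap. Of 20 shared promoters of the serine, glycine and amino acid list, 6 ranked higher in CR without overlap and 0 in RD, against 5.06% and 6.42% of all shared promoters, and their median difference was 13.5 percentile points, against -0.195 over all 4109. Asl (with RD 1 taken at the start shared with Crcp), Gpt (alanine aminotransferase), Shmt1 (serine hydroxymethyltransferase), Ahcy, Prodh and Psph were the 6 genes. Gpt had percentiles of 43.2, 30.8 and 80.7 in CR and 11.3, 19.8 and 6.55 in RD. Of 16 interferon and antigen presentation genes, 0 ranked higher in CR and 2 in RD (Irf1 and Irf9), few genes beside those shares, with a median difference of -12.6 points and 1 gene wider in each direction. Of 42 ribosomal protein promoters, 3 ranked higher in CR and 0 in RD, and 2 were wider in CR and 6 in RD after centring, against 4.67% and 6.01% of all shared promoters, so that the CR counts were near the overall shares.

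Single promoters of known regulators of the fasted and fed state also kept the diets apart. Ppara, the nuclear receptor of the fasting response, had widths of 4200, 8600 and 5400 bp in CR and 2800, 2000 and 1000 bp in RD and percentiles of 95.0, 97.2 and 97.4 in CR and 89.4, 86.3 and 85.8 in RD (centred width difference of 1.25 ± 0.39 on the log2 scale, limma unadjusted p = 0.0069, adjusted p of 0.858 at best over all promoters). Dbp, an output gene of the clock, was at 97.9, 90.8 and 80.4 in CR and 62.2, 49.9 and 2.94 in RD. Insr, the insulin receptor, leaned the other way, at 26.8, 65.3 and 75.7 in CR and 95.8, 83.3 and 76.4 in RD. Insig2, a sterol-regulated brake on lipid synthesis, was at 57.9, 72.6 and 63.6 in CR and 93.9, 87.4 and 97.1 in RD. These genes were picked out of the lists after their values were seen.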

How the data were processed

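The authors aligned single reads of 50 bp from formalin-fixed, paraffin-embedded mouse liver (PAT-ChIP) to mm10 with BWA, kept unique reads on chromosomes 1 to 19 and X, and called islands per library with SICER2 (window 200 bp, gap 400 bp, FDR under 0.05), without pooling. Each deposited list gives chromosome, start, end and score, and the score is not scaled between libraries.

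Islands were assigned to GENCODE M21 genes within 1 kb of any TSS. The widest island and the highest score of a gene were used. Group values were compared by two-sided exact permutation tests, and shared promoters with limma 3.58.1 (R 4.3.3, eBayes with trend) on log2 widths centred per library and on normal scores of rank, with Benjamini-Hochberg adjustment over 4109 promoters. The tests were also run on simulated data with 200 changed promoters of 4109. For a change of 1 on the log2 scale the width test recovered 0 of the 200, and for a change of 2 it recovered 155. For a change of 1 in normal score the rank test recovered 3 of the 200, and for a change of 2 it recovered 97. Reads were recovered from the score steps with an effective genome fraction of 0.74, and the result lay within 0.00042 of a whole number in each of the 6 libraries. The depth behind a single peak is unknown here, so no counting interval is given. Promoter sequences were read from GRCm38.p6, and 11973 of 11973 windows at a RefSeq start were identical to the RefSeq table.

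Named genes were the 12 strict-class genes per direction with the highest mean score percentile, list members in a strict class, the 8 promoters per direction with the smallest limma p for width and for rank among those without overlap, and hepatocyte markers. Gm and Rik names were left out of these rules. Other list genes, and the genes of the wider RD class including Gm17334, were named after their values were seen. The members and lists were chosen with earlier results of these data known. The deposited replicates are separate mice. Read-level signal was not analysed here.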

Additional observations from a re-analysis of the deposited data

How the results depend on the processing

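Marked protein-coding genes stayed more frequent in CR under every alternative run (9.74 to 16.1 points with 1 library left out, 5.94 points over all annotated genes), and so did the median width at shared promoters (433 to 867 bp with 1 library left out). The difference in peaks per library ranged from -5161 to 7419 and reversed without CR 3 (-5161), without RD 1 (-1420) and without RD 3 (-2318). The difference in the share of peaks at TSSs ranged from 3.89 to 20.6 points and reversed within the ChIP form of name (-1.48 points). With 1 library left out, genes in at least 2 CR and no RD library numbered 512 to 2264, genes in at least 2 RD and no CR library 2 to 91, strict CR genes 512 to 1288 and strict RD genes 1 to 22. The direction of these changes was set by the rules, which tighten or loosen when a library is left out. Without CR 3 and RD 2 the strict CR, wider RD and strict RD counts were 969, 13 and 13. Over all annotated genes the wider RD count was 106 and the strict RD count 8. The strict RD count was 3 with equal list lengths or with peaks above the median score, and 2 with TSSs within 3 kb. Promoters called wider in RD numbered 0 to 1 with 1 library left out. Promoters called higher in rank in RD numbered 0 to 6 with 1 library left out, and 0 with TSSs inside a peak, with TSSs within 3 kb, without CR 3 and RD 2, over all annotated genes, with percentiles within the whole list, and with limma without a trend. The cause was not tested. Same-numbered CR and RD mice are different animals, and their deviations correlated at 0.0375, -0.0980 and -0.0445. With the replicate block, 0 promoters were called in rank, and the block gave an exact p of 0.25, the smallest it allows, for the frequency of marked genes. With 3 mice per diet no exact p can fall under 0.1, and a peak below the threshold of its list is not seen.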
